A study of Mus musculus with 23 samples.

Results

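Expression of 9 genes for the assembly of chylomicrons was described in the ileum of male C57BL/6J mice. The genes were Apob, Mttp, Apoa1, Apoa4, Apoc2, Apoc3, Dgat1, Dgat2 and Mogat2. They were chosen by name, and every array probe whose gene name was one of these symbols was used, which gave 15 probes of the 56605 on the array. All 15 were tested, and the 9 genes were members of 17727 genes tested in all. The study compared wild-type (WT) mice with Pxr-/- mice, which lack the pregnane X receptor encoded by Nr1i2, a nuclear receptor that senses foreign chemicals. Mice of each genotype received pregnenolone 16α-carbonitrile (PCN), a ligand of the rodent receptor, at 100 mg/kg in corn oil by intraperitoneal injection on 4 consecutive days, or corn oil alone (CONT). Mice with free access to food were killed 6 h after lights on (ZT 6) and 6 h after the last injection. There were 6 WT CONT, 5 WT PCN, 6 Pxr-/- CONT and 6 Pxr-/- PCN mice, with 1 single-colour Agilent array per mouse, in 2 wash batches; 6 mice had been allocated to each group. WT mice were bought at 6 weeks of age, whereas Pxr-/- mice, backcrossed to C57BL/6J, had been bred in house for 10 years, so that genotype and breeding origin cannot be told apart. Mice were acclimatised for 2 weeks before allocation. The age of the Pxr-/- mice is not given in the sources used here. RNA came from ileum as a tissue, not from sorted cells.

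Enterocytes absorb fatty acids and monoacylglycerol, rebuild them into triglyceride in the endoplasmic reticulum and export them as chylomicrons. MOGAT2 joins an acyl chain to monoacylglycerol, and DGAT1 and DGAT2 add the last one. MTTP, the microsomal triglyceride transfer protein, loads this lipid onto apolipoprotein B, the structural protein of the particle, while apolipoproteins A-I, A-IV, C-II and C-III travel on its surface. A-IV is made mainly by the intestine and follows lipid absorption, C-II activates lipoprotein lipase and C-III inhibits it.

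Probes of 5 apolipoprotein genes, 60 bases long, are shown in lower case and 5′ to 3′, because each value below is the signal of 1 such sequence. For Apoa1, Apoa4 and the first Apob entry the probe is the brightest of its gene, on which the values of that gene rest. The second Apob entry and those of Apoc3 and Apoc2 are further probes of these genes, whose values are given beside those of the brightest. Probe positions are on mouse build mm9, as annotated by the array's maker. Exon and untranslated region were not analysed here, but the second Apob probe spanned 1615 genomic bases and so crossed an intron.
Apob, chr12:8012697-8012756, + strand: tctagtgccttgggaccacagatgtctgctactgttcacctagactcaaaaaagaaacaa
Apob, chr12:7992933-7994547, + strand: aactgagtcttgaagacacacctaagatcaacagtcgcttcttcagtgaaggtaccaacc
Apoa1, chr9:46037921-46037980, + strand: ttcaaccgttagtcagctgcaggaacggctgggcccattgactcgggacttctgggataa
Apoc3, chr9:46041353-46041412, - strand: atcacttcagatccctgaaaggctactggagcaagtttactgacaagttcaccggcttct
Apoa4, chr9:46051206-46051266, + strand: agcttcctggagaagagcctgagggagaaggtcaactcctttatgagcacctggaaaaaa
Apoc2, chr7:20258597-20258656, - strand: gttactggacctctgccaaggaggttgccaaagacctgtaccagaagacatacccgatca
The probes of Apoa1, Apoc3 and Apoa4 lay within 13346 bases of chromosome 9. Those of Dgat2 and Mogat2 lay within 78790 bases of chromosome 7.

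RefSeq promoter windows, 250 bases before to 50 after the start of transcription on build GRCm38.p6, were given for 5 of the 9 genes. They were searched on both strands for 2 letter forms of the HNF4-type element, CAAAGTCCA and CAAAGTTCA, which differ at 1 base, and for the TATA box TATAAA. CAAAGTTCA was found in the window of Apoa4, at -182 to -174 from the start, and in 0.39% of all 32851 windows. TATAAA was found in the window of Apob, at -60 to -55 from the start, and in 13.6% of windows. CAAAGTCCA was in 0.475% of windows and in none of the 5. The window of Mttp is shown because it held the whole of the dimmer Mttp probe, at -37 to 22 from the annotated start. Capitals mark these matches.
Apoa4, chr9:46240594-46240893, + strand: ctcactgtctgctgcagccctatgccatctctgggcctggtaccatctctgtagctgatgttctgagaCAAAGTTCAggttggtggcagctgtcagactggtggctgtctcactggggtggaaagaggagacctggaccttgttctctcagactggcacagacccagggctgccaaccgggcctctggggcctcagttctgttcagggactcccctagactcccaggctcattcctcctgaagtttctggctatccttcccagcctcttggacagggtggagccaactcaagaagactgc
Apob, chr12:7977427-7977726, + strand: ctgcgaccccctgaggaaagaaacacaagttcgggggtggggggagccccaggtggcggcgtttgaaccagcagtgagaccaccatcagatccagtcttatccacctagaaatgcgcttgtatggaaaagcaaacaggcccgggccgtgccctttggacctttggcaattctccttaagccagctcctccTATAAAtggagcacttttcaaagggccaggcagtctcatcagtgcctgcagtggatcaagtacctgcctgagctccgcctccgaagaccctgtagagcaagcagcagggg
Mttp, chr3:138143369-138143668, - strand: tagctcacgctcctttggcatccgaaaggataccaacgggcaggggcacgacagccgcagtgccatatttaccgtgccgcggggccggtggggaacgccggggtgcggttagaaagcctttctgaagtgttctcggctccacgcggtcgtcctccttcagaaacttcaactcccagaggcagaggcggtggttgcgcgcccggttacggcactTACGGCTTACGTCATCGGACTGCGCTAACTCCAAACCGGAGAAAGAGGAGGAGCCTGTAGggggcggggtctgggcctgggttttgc

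Between 60.9% and 67.3% of probes were well above background on an array. Cyp3a11, a classical target of the receptor, ranged from 11.01 to 12.51 on the log2 scale in WT PCN and reached 9.47 in WT CONT and 7.08 in Pxr-/- PCN. The single Nr1i2 probe gave 11.38 to 12.27 in Pxr-/- mice against 11.57 to 12.53 in WT mice. Whether it lies in the deleted part of the gene is not given in the sources used here, so it does not check the labels. The ileal genes Fabp6, Slc51a and Slc10a2 had means of 18.51, 17.39 and 14.70 in WT CONT, and the proximal genes Lct and Gata4 had 6.14 and 5.68. The rest of these lists did not separate as clearly. Medians in WT CONT were 14.50 for Slc51b and 9.47 for Fgf15 among ileal genes. Among proximal genes they were 11.14 for Fabp1, 10.75 for Slc46a1 and 7.81 for Cybrd1. 1 array stood apart in part of a list of 6 liver genes. Albumin (Alb) was 8.79 in WT CONT replicate 3 and 5.78 to 6.94 in the other 22 mice. Ahsg and Fgb were 7.90 and 7.78 there against no more than 6.42 and 5.91 elsewhere. Ttr and Serpina1a did not set this array apart. Its Ttr and Serpina1a were 7.35 and 12.47, where WT CONT mice reached 7.41 and 12.79. Its Apoh was 7.30, above the other WT CONT mice at 6.64 to 6.87, although Pxr-/- PCN mice reached 8.24. The mean of the 6 liver genes was 8.60 on this array and at most 7.63 on the other 22. Because liver also makes Apob, Apoa1, Apoc2 and Apoc3, differences from WT CONT are also given without this array below.

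None of the 9 genes was called in any of the 5 comparisons by limma, where a call needed both a fold change over 1.5 and an adjusted p no higher than 0.05. Among all genes tested, 1.05% were called for PCN in WT mice, 1.47% for PCN in Pxr-/- mice, 0.118% for the difference between these PCN effects, 0.214% between the control groups and 0.542% between the PCN groups. Unadjusted p was under 0.05 for 3, 2, 0, 3 and 1 of the 9 genes in these comparisons, where 14.9%, 23.2%, 5.06%, 10.3% and 8.51% of all genes had such a p. The median difference over the 9 genes was 0.0011, 0.04, 0.10, -0.16 and 0.0093 on the log2 scale, beside -0.02, 0.00045, 0.02, -0.0032 and 0.01 over all genes. Ranges of the mice overlapped for all 9 genes in each of the 4 comparisons of a pair of groups. Ranges did not overlap for 3.52%, 3.18%, 1.36% and 1.28% of all genes in these comparisons, taken in the order above without the difference between PCN effects. The intervals below rest on 5 or 6 mice per group and widen with the spread among mice of a gene.

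**Figure D1:**
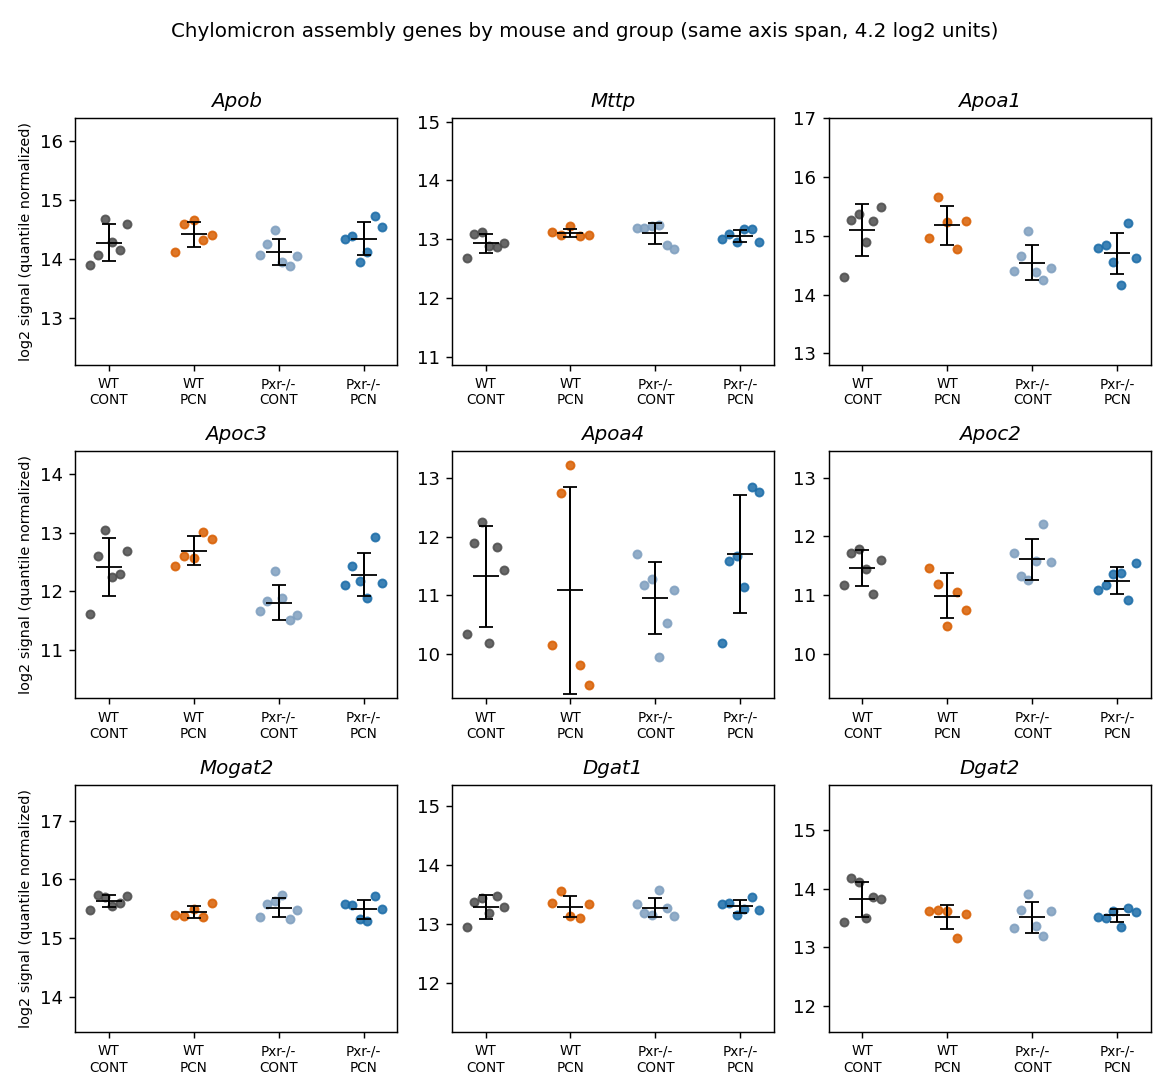
Log2 signal of the brightest probe of each gene, 1 point per mouse, by group, with the mean and SD as black bars; every panel spans the same number of log2 units. The groups overlap in each panel, and Apoa4 has the widest scatter, with WT PCN mice from 9.48 to 13.22.

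**Figure D2:**
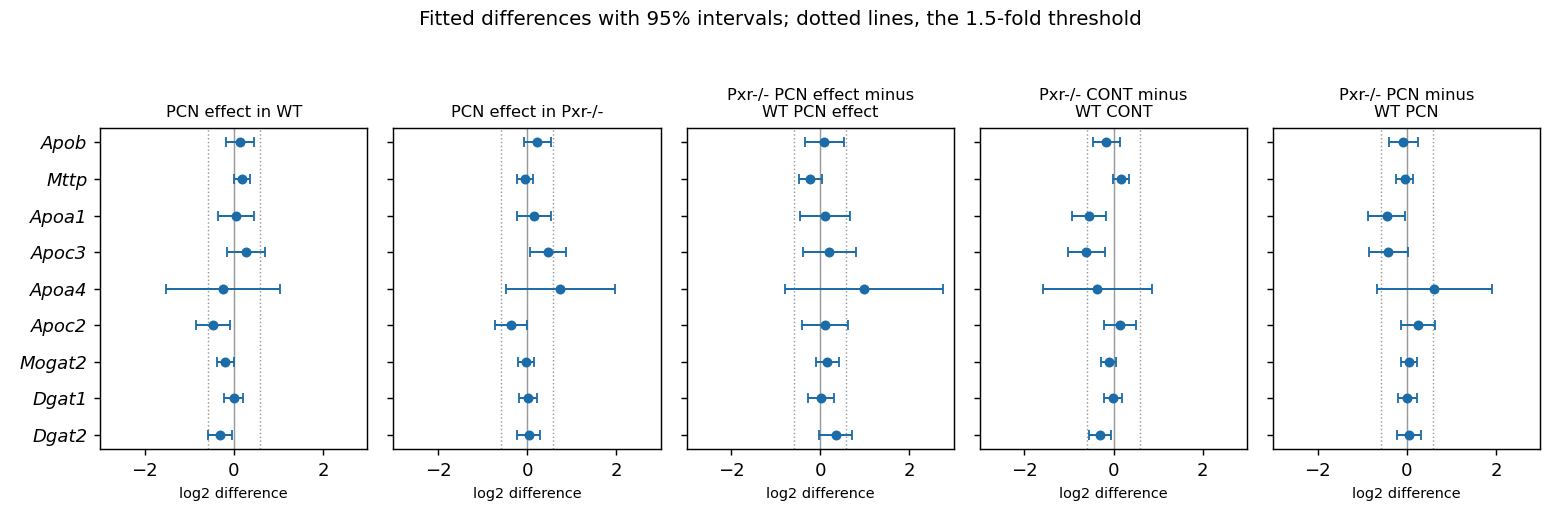
Fitted log2 difference of each gene in the 5 comparisons, with 95% intervals; the solid line is 0 and dotted lines mark 1.5-fold in either direction. Intervals of Apob, Dgat1, Mogat2 and Mttp stay inside the dotted lines in all 5 panels, and that of Apoa4 is the widest in each.

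Apob, the structural protein of the particle, overlapped widely between groups. Its log2 signal was 13.89 to 14.68 in WT CONT (median 14.22), 14.12 to 14.66 in WT PCN (14.40), 13.87 to 14.49 in Pxr-/- CONT (14.07) and 13.95 to 14.73 in Pxr-/- PCN (14.37). The 4 ranges lay almost on top of each other. PCN was associated with a difference of 0.14 ± 0.15 (SE) in WT mice and 0.23 ± 0.15 in Pxr-/- mice, with adjusted p of 0.790 and 0.402 by limma. The second Apob probe had means of 11.70 to 12.01 by group and gave 0.13 and 0.24 for the same comparisons. Across the 23 mice, after removal of group and wash-batch means, both Apob probes correlated with r = 0.92.

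Mttp, which loads lipid onto apolipoprotein B, varied the least among mice together with Mogat2. WT CONT mice ranged from 12.69 to 13.12 (median 12.90), WT PCN mice from 13.05 to 13.22 (13.08), Pxr-/- CONT mice from 12.83 to 13.25 (13.20) and Pxr-/- PCN mice from 12.95 to 13.18 (13.05). The WT CONT group reached lowest and had the lowest mean. WT PCN minus WT CONT was 0.18 (95% interval -0.0027 to 0.36, adjusted p = 0.434, limma) and Pxr-/- CONT minus WT CONT was 0.17 (-0.001 to 0.35, adjusted p = 0.566). The PCN effect in Pxr-/- mice was -0.04 (-0.22 to 0.13), and the PCN effects of the genotypes differed by -0.22 ± 0.12 (SE, adjusted p = 0.999). The probe at the annotated start of transcription was near background, well above it on 11 of 23 arrays, with group means of 5.39 to 5.54. It correlated with the bright probe with r = 0.15.

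Apoa1 and Apoc3, neighbours in the chromosome 9 cluster, showed the lowest unadjusted p of the 9 genes, both between the control groups. Apoa1 encodes the main protein of high density lipoprotein. Its signal was 14.30 to 15.49 in WT CONT (median 15.26) and 14.24 to 15.09 in Pxr-/- CONT (14.43), and 5 of the 6 WT CONT mice were above the Pxr-/- CONT median, the exception being replicate 1. The difference was -0.56 ± 0.19 (SE, unadjusted p = 0.00640, adjusted p = 0.289 by limma). After PCN the ranges were 14.77 to 15.66 in WT and 14.16 to 15.22 in Pxr-/- mice, and the difference was -0.45 ± 0.19 (adjusted p = 0.599). PCN itself was associated with 0.06 in WT and 0.16 in Pxr-/- mice, each smaller than its SE of 0.19.

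Apoc3, the lipase inhibitor, had its brightest probe at 11.62 to 13.05 in WT CONT (median 12.45), 12.43 to 13.00 in WT PCN (12.60), 11.52 to 12.34 in Pxr-/- CONT (11.75) and 11.88 to 12.93 in Pxr-/- PCN (12.16). Each pair of groups that was tested overlapped. Pxr-/- CONT minus WT CONT was -0.61 ± 0.20 (SE, unadjusted p = 0.00564, adjusted p = 0.274 by limma), and Pxr-/- PCN minus WT PCN was -0.41 ± 0.21 (adjusted p = 0.747). The PCN effect was 0.27 ± 0.21 in WT and 0.47 ± 0.20 in Pxr-/- mice (adjusted p = 0.672 and 0.190). The probe with the sequence shown above gave -0.60, -0.43, 0.23 and 0.40 for these 4 comparisons, with r = 0.98 to the brightest probe over the 23 mice. The remaining Apoc3 probe had group means of 6.31 to 6.45 and r = 0.08.

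WT CONT replicate 3, the mouse with the highest albumin signal, also had the highest Apoc3 value of its group, 13.05. Without it, Pxr-/- CONT minus WT CONT became -0.47 ± 0.19 for Apoc3 and -0.48 ± 0.19 for Apoa1, with adjusted p of 0.502 and 0.496 by limma. The same difference went from -0.16 to -0.08 for Apob and from -0.37 to -0.18 for Apoa4. The PCN effect in WT mice went from 0.27 to 0.40 for Apoc3, from 0.14 to 0.22 for Apob, from 0.06 to 0.14 for Apoa1 and from -0.24 to -0.06 for Apoa4. The other members moved by less than Apob in both comparisons. No member was called without this array. Within wash batch 1 alone the differences between the control groups were -0.71 for Apoc3 and -0.63 for Apoa1, and within wash batch 2 alone -0.51 and -0.49. No member was called in either batch. The share of liver RNA in these values was not tested.

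Apoa4 varied more among mice of a group than any other of the 9 genes. The WT PCN mice were at 9.48, 9.82, 10.16, 12.73 and 13.22, that is, 3 low and 2 high mice with none between them. WT CONT mice ranged from 10.19 to 12.24 (median 11.64), Pxr-/- CONT mice from 9.95 to 11.70 (11.14) and Pxr-/- PCN mice from 10.19 to 12.85 (11.63). From the lowest to the highest of the 23 mice the signal differed 13.3-fold, whereas the widest range of the other 8 genes was 3.33-fold, for Apoc2. The within-group SD of Apoa4 was 1.13 on the log2 scale, larger than that of 99.8% of 17710 genes. The median SD over these genes was 0.17.

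With this spread, the PCN effect on Apoa4 was -0.24 (95% interval -1.52 to 1.05) in WT mice and 0.75 (-0.47 to 1.97) in Pxr-/- mice. The intervals hold both a 2-fold decrease and a 2-fold increase for WT mice, so a change of that size was not detectable with these numbers of mice. The PCN effects differed between genotypes by 0.99 ± 0.86 (SE, adjusted p = 0.999 by limma). Between genotypes, Apoa4 differed by -0.37 ± 0.59 without and 0.62 ± 0.62 with PCN. High and low WT PCN mice were found in both wash batches: 13.22 and 9.82 in batch 1, and 12.73, 10.16 and 9.48 in batch 2. Leaving out 1 mouse at a time moved the WT PCN effect between -0.85 and 0.16.

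Apoc2, the cofactor of lipoprotein lipase, had lower values after PCN in both genotypes, without passing the test in either. WT CONT mice were at 11.02 to 11.78 (median 11.52) and WT PCN mice at 10.48 to 11.46 (11.05). Pxr-/- CONT mice were at 11.26 to 12.22 (11.57) and Pxr-/- PCN mice at 10.92 to 11.55 (11.27). The ranges overlapped in both genotypes, with all Pxr-/- PCN mice below the Pxr-/- CONT median. The PCN effects were -0.46 ± 0.18 and -0.36 ± 0.17 (SE), with unadjusted p of 0.0184 and 0.0481 and adjusted p of 0.286 and 0.252 by limma, and they differed by 0.10 ± 0.25. The other probe, whose sequence is shown above, gave -0.57 and -0.46, and correlated with the first with r = 0.93. In WT mice the effect was -0.75 within wash batch 1 and -0.26 within wash batch 2.

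Mogat2, the first acyltransferase, had the smallest spread among mice of a group, with an SD of 0.14 on the log2 scale. Its signal was 15.49 to 15.73 in WT CONT (median 15.65), 15.36 to 15.60 in WT PCN (15.39), 15.32 to 15.73 in Pxr-/- CONT (15.54) and 15.29 to 15.71 in Pxr-/- PCN (15.53). WT PCN minus WT CONT was -0.19 ± 0.09 (SE, adjusted p = 0.401 by limma), and the other comparisons of a pair of groups lay between -0.11 and 0.05. A second Mogat2 probe (group means 7.70 to 8.03) gave -0.27 for PCN in WT mice, -0.21 for PCN in Pxr-/- mice, where the first gave -0.03, and -0.06 between the PCN groups, where the first gave 0.05. Its r to the first was 0.37.

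Dgat1 showed the smallest differences. Group ranges were 12.95 to 13.48, 13.10 to 13.56, 13.14 to 13.59 and 13.15 to 13.46 in the order WT CONT, WT PCN, Pxr-/- CONT and Pxr-/- PCN. The group means lay between 13.28 and 13.30. The 95% interval of the PCN effect was -0.21 to 0.21 in WT mice and -0.18 to 0.22 in Pxr-/- mice, which holds no change of 1.5-fold in either direction.

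Dgat2 was at 13.44 to 14.17 in WT CONT (median 13.84), 13.16 to 13.63 in WT PCN (13.61), 13.19 to 13.91 in Pxr-/- CONT (13.50) and 13.35 to 13.67 in Pxr-/- PCN (13.56). WT CONT had the highest mean, 13.82, and the other 3 groups had means of 13.51 to 13.55. WT PCN minus WT CONT was -0.31 ± 0.13 and Pxr-/- CONT minus WT CONT was -0.31 ± 0.12 (SE), with adjusted p of 0.314 and 0.443 by limma. These comparisons share the WT CONT mice. The PCN effect in Pxr-/- mice was 0.04 ± 0.12, and the difference of the PCN effects was 0.35 ± 0.18 (unadjusted p = 0.0639, adjusted p = 0.999).

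Brightness did not limit these values. No member probe was marked as saturated and none had a saturated pixel on any of the 23 arrays. The brightest spots reached a linear signal of 59779 for Mogat2 and 50558 for Apoa1, where the highest signal on the arrays was 778663. In the table of log2 values deposited by the authors, all 15 probes were present and differed by at most 0.14 from the values used here, and none of the 9 genes was called from it either.

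Within groups, many pairs of the 9 genes were positively correlated from mouse to mouse. Correlations were computed on the values left after removal of group and wash-batch means, for 36 pairs over 23 mice. Pearson's r was above 0 in 29 pairs, with a median of 0.48. In 18 pairs the Benjamini-Hochberg adjusted permutation p was at most 0.05 for both Pearson's r and Spearman's rho. Among them, r was lowest for Dgat1 with Mttp and with Apoa1, at 0.48 each. Without the 2 mice farthest from the median of Mttp or Apoa1, these were 0.26 and 0.36. Pairs of other genes were not examined in this way, so whether these values are particular to the 9 genes was not tested. Apob and Apoa1 had r = 0.85 (adjusted permutation p = 0.00036, rho = 0.80 with adjusted p = 0.00072), and r = 0.80 without the 2 mice farthest from the median of Apob. Apoa1 and Apoc3 had r = 0.76 (adjusted permutation p = 0.00072, rho = 0.75, adjusted p = 9e-04), and 0.67 without the 2 farthest. Within wash batches 1 and 2 these pairs had r of 0.90 and 0.78, and of 0.76 and 0.76.

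Apoa1 also correlated with Dgat2 (r = 0.72, rho = 0.75, adjusted permutation p = 0.00132 and 0.0012) and with Mogat2 (r = 0.68, rho = 0.69, adjusted permutation p = 0.00228 and 0.00281). Apoc2 stood apart, with r from -0.39 to 0.23 to the other 8 genes and no adjusted p at or below 0.05. Apoa4 had r = 0.57 with Apoa1 and 0.25 with Apoc3, although the probes of all 3 lie in the same cluster. Some pairs differed between wash batches 1 and 2, with r of 0.91 and 0.16 for Apob and Dgat2, 0.77 and 0.33 for Apob and Apoa4, and 0.80 and 0.35 for Apoa4 and Dgat2. Over the 18 pairs, r ran from 0.50 to 0.91 in batch 1 and from 0.16 to 0.78 in batch 2, and the difference between batches was not tested. Genes of 1 array share its RNA and hybridisation.

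**Figure D3:**
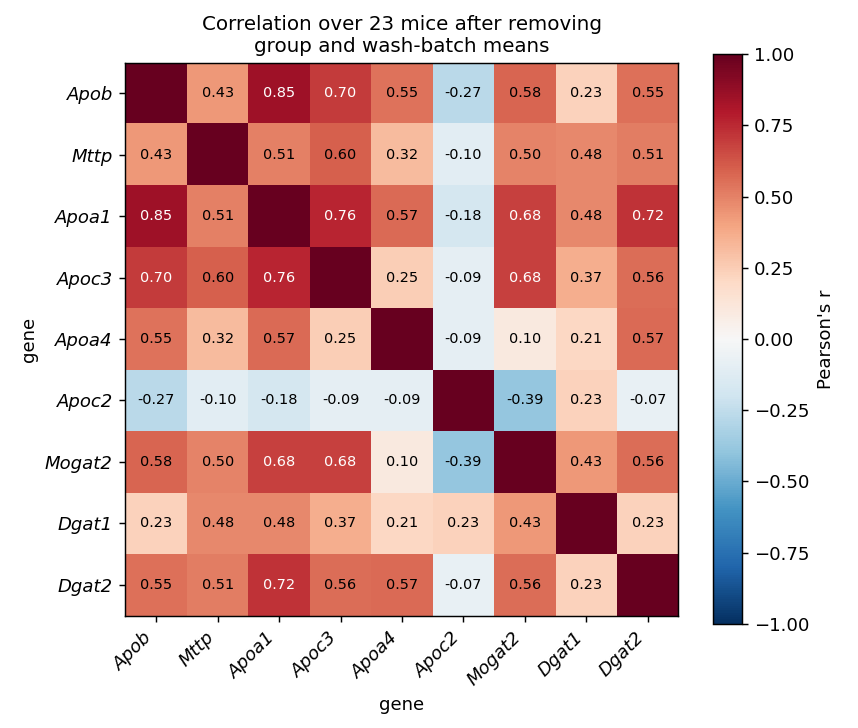
Pearson's r between the 9 genes over 23 mice after removal of group and wash-batch means; red is positive, blue negative, and each cell gives r. Apob, Apoa1, Apoc3, Mogat2 and Dgat2 form a block of positive values from 0.55 to 0.85, and the row of Apoc2 is near 0 or negative.

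Measures of tissue content were set against the same values, in a family of 45 relations over 23 mice. The mean of 8 enterocyte markers, among them Vil1, Fabp2 and Krt20, correlated with Apoa1 (r = 0.83, rho = 0.81, adjusted permutation p = 0.00045 and 0.00135) and with Apoc3 (r = 0.79, rho = 0.74, adjusted permutation p = 0.00075 and 0.00135). Dgat2 (r = 0.77, rho = 0.73, adjusted permutation p = 0.00045 and 0.0021), Mttp (r = 0.70, rho = 0.69, 0.00292 and 0.00517) and Apob (r = 0.66, rho = 0.61, 0.00432 and 0.0225) also passed. Within wash batches 1 and 2, r was 0.78 and 0.90 for Apoa1, 0.80 and 0.78 for Apoc3, 0.79 and 0.76 for Dgat2, 0.75 and 0.63 for Mttp, and 0.77 and 0.52 for Apob. Without the 2 mice farthest from the median of the marker list, r was 0.76, 0.63, 0.71, 0.55 and 0.52 for these 5 genes. Mogat2, Apoa4 and Dgat1 had r of 0.53, 0.49 and 0.49, with adjusted permutation p of 0.0684, 0.077 and 0.077 for r. Apoc2 had r = 0.02. Lists for ileum, proximal intestine and hepatocytes and the share of probes above background had no relation with an adjusted p at or below 0.05. In whole tissue, fewer cells of a type and less RNA per cell cannot be told apart. None of the 8 enterocyte markers was called in any comparison, and the mean of the list was 15.41 to 15.99 in WT CONT, 15.78 to 15.95 in WT PCN, 15.62 to 15.90 in Pxr-/- CONT and 15.77 to 15.95 in Pxr-/- PCN. This mean hides opposite directions. With PCN, 5 of the 8 markers were higher and 3 lower in each genotype. Unadjusted p by limma was under 0.05 for 3 in each, beside 14.9% of all genes in WT and 23.2% in Pxr-/- mice. From WT CONT to WT PCN the median of Sis went from 15.79 to 16.60 and that of Krt20 from 17.32 to 17.19.

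The genes whose pattern over the 23 mice was most like 3 members were taken from 17701 others, after subtraction of wash-batch means, with Pearson's r as a description. Among them was Ubxn2a for Apob (r = 0.80). For Mttp they included Pls1 (0.78), an actin bundler of microvilli, and Gm8909 (0.78). For Apoa4 they were 6530402F18Rik (0.84), Creb3l3 (0.77), a transcription factor of the endoplasmic reticulum made in liver and intestine, and Ankrd37 (0.76). Without the 2 mice farthest from the median of the member, r was 0.76 for Ubxn2a, 0.60 for Pls1 and 0.75 for Creb3l3.

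Around the 9 genes, 77 other genes of fat absorption, droplet storage and lipoprotein handling were listed, and 72 passed the filter on dim probes. 1 of them was called in 1 comparison, 1.39% of the list beside 1.47% of all genes. It was Apod, an apolipoprotein of the lipocalin family, with PCN in Pxr-/- mice. Apod was at 8.43 to 9.30 in Pxr-/- CONT and 9.30 to 9.86 in Pxr-/- PCN, with the highest control mouse level with the lowest treated mouse. It rose by 0.67 ± 0.15 (SE, adjusted p = 0.0184 by limma). The value was 0.79 within wash batch 1 and 0.54 within wash batch 2, where it was not called (adjusted p = 0.475 and 0.125). In WT mice its PCN effect was 0.49 ± 0.16 (adjusted p = 0.164), and the difference between the genotypes was 0.18 ± 0.22. The median PCN effect over the 72 genes was 0.03 in WT and 0.07 in Pxr-/- mice, beside -0.02 and 0.00045 over all genes.

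6 more genes of the list had an adjusted p of at most 0.05 in a comparison but a fold change under 1.5, and they are named after their values were seen. The share of all genes with such an adjusted p is not given here, so whether the list exceeds it was not tested. Sar1b is the small GTPase of the coat vesicles that carry chylomicron precursors to the Golgi. It was at 11.68 to 12.13 in WT CONT and 12.17 to 12.44 in WT PCN, with no overlap, as for 3.52% of all genes. Its ranges were 11.73 to 11.95 in Pxr-/- CONT and 11.79 to 12.14 in Pxr-/- PCN. The PCN effect on Sar1b was 0.40 ± 0.08 (SE, adjusted p = 0.00861 by limma) in WT and 0.14 ± 0.07 (adjusted p = 0.302) in Pxr-/- mice. The test of the difference gave -0.26 ± 0.11 (unadjusted p = 0.0273, adjusted p = 0.999). Between the PCN groups Sar1b differed by -0.37 ± 0.08 (adjusted p = 0.0252). With 1 mouse left out at a time, the adjusted p for PCN in WT mice stayed at or below 0.0330, and that between the PCN groups reached 0.0831.

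Acsl4, an acyl-CoA synthetase with a preference for arachidonate, was at 10.03 to 10.55 in WT CONT and 10.61 to 11.04 in WT PCN, and its PCN effect was 0.46 ± 0.10 (adjusted p = 0.0254 by limma). Scarb1, a receptor for high density lipoprotein, was at 8.32 to 8.61 in Pxr-/- CONT and 8.83 to 9.13 in Pxr-/- PCN. These ranges did not overlap, as for 3.18% of all genes, and the effect was 0.51 ± 0.08 (adjusted p = 0.00101 by limma). In WT mice the effect on Scarb1 was 0.32 ± 0.08 (adjusted p = 0.0538). Plin2, which coats lipid droplets, differed by 0.39 ± 0.11 with PCN in Pxr-/- mice (adjusted p = 0.0462), where Dbi, an acyl-CoA binding protein, differed by -0.27 ± 0.07 (adjusted p = 0.0303). Sec24c, a cargo adaptor of the same coat as SAR1B, differed by -0.22 ± 0.05 (adjusted p = 0.0222) in these mice. With 1 mouse left out at a time, the adjusted p stayed at or below 0.05 in 23 of 23 fits for Scarb1, 21 for Sec24c, 17 for Acsl4, 15 for Dbi and 10 for Plin2. It was highest without WT PCN replicate 5 for Acsl4 (0.0869), without Pxr-/- PCN replicate 1 for Plin2 (0.123) and without Pxr-/- PCN replicate 5 for Dbi (0.0724) and Sec24c (0.0665). Under 11 other settings of the processing it was at or below 0.05 in 9 for Scarb1, 8 each for Sec24c, Acsl4 and Dbi, and 4 for Plin2. The PCN effect on Plin2 was 0.13 within wash batch 1 and 0.65 within wash batch 2. The differences between the genotypes' PCN effects had an adjusted p of 0.999 for all 7 genes.

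**Figure D4:**
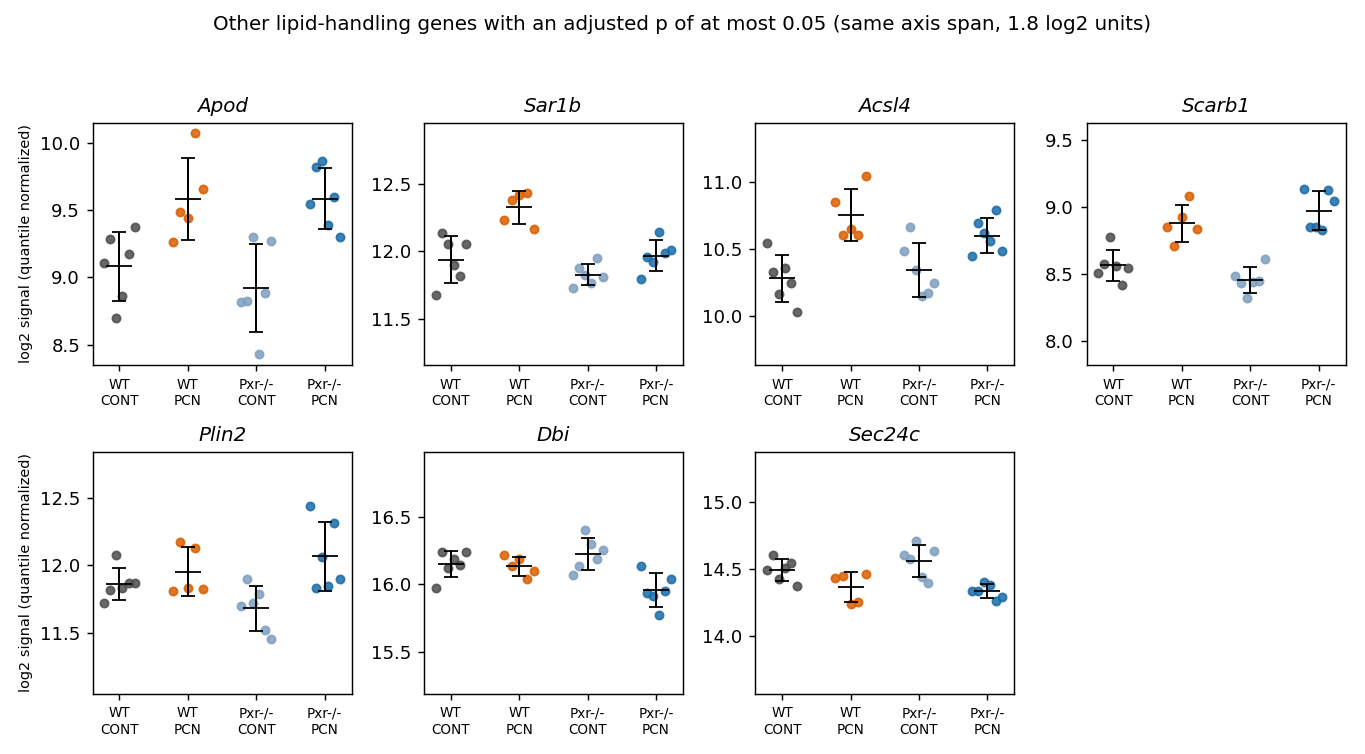
Log2 signal of the 7 other lipid-handling genes with an adjusted p of at most 0.05 in a comparison, 1 point per mouse, by group, with the mean and SD as black bars; every panel spans the same number of log2 units. WT PCN mice lie above WT CONT mice for Sar1b and Acsl4, and Pxr-/- PCN mice lie above Pxr-/- CONT mice for Scarb1.

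By part of the pathway, the 22 listed genes of particle assembly, editing and secretion had a median PCN effect of -0.04 in WT and -0.01 in Pxr-/- mice, and none was called. The 16 genes of acyl-CoA and triglyceride synthesis had medians of 0.01 and 0.05 and the 9 of fatty acid uptake and binding 0.04 and 0.08. The 11 genes of lipid droplets and triglyceride hydrolysis had medians of 0.09 in WT and 0.22 in Pxr-/- mice. For PCN in Pxr-/- mice, unadjusted p was under 0.05 for 6 of 22 genes of particle assembly, 3 of 16 of synthesis, 3 of 9 of uptake, 5 of 11 of droplets and 3 of 7 other apolipoproteins, and for none of the 7 genes of lipolysis and receptors, beside 23.2% of all genes. All 7 tested genes of other apolipoproteins had a higher value in WT PCN than in WT CONT, and Apod was the only one called in any comparison. Unadjusted p by limma was under 0.05 for 1 of the 7 in WT mice, beside 14.9% of all genes. With PCN in Pxr-/- mice 5 of them were higher and 2 lower.

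Some genes listed as markers of other cell types differed with PCN in the same samples. Numbers of cells were not measured. In the neutrophil list 2 of 5 genes were called higher in each genotype, and in Pxr-/- mice 3 of 6 smooth muscle genes and 1 of 6 macrophage genes were called higher. Over all genes, 1.05% were called for PCN in WT mice and 1.47% in Pxr-/- mice. All 6 genes of the smooth muscle and macrophage lists were higher with PCN in each genotype. In WT mice none of them was called, and unadjusted p by limma was under 0.05 for 4 and 2. The list means of neutrophil genes were 7.74 to 8.58 in WT CONT and 8.76 to 9.93 in WT PCN, and 8.03 to 8.67 in Pxr-/- CONT and 8.97 to 10.75 in Pxr-/- PCN. No B-cell gene was called, with a median PCN effect of 0.90 in WT mice, where 7 of 8 genes had an unadjusted p under 0.05, beside 14.9% of all genes. In Pxr-/- mice the median effect was 0.49, with such a p for 2 of 8 genes, beside 23.2% of all genes. The list means of B-cell genes were 7.70 to 8.08 in WT CONT (median 7.89) and 8.13 to 10.31 in WT PCN (8.29). The part of these cell types in the results above was not tested.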

How the data were processed

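Ileum RNA (150 ng per mouse) was labelled with Cy3 by the authors and scanned with Agilent Feature Extraction 10.10.1.1. Per the file headers, the scanner files give the intensity of every spot on a linear scale, and the median signal used here had no background subtracted. The authors also deposited a log2 table, made by a filter on median signal, wash-batch correction and CrossNorm normalization, which served as an alternative. Here, control and outlier spots were removed from the median signals, which were put on the log2 scale, averaged per probe and quantile normalized over 23 arrays. Probes well above background on at least 50% of the arrays of 1 group were tested (37591). Comparisons used limma 3.58.1 in R 4.3.3, with group and wash batch as terms, 2-sided moderated tests and Benjamini-Hochberg adjustment over all tested probes. A gene was read by its brightest tested probe, and probes were assigned to symbols through a RefSeq gene table (GRCm38.p6). Correlations used permutation tests with 100000 resamples. The script was tested on simulated data. Figures were drawn with matplotlib 3.10.9. Precision is limited by the number of arrays.

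Members and lists were chosen with earlier results of these data known. Named genes were all 9 members, listed pathway genes that were called, and the 3 genes most correlated with each of Apob, Mttp and Apoa4. Some of the latter are not reported here. Outside this rule, 6 listed pathway genes with an adjusted p at or below 0.05 but a smaller fold change were named after their values were seen. Alternatives were 2 centrings on the 75th percentile, normexp correction, the deposited table, no filter on dim probes, no fold threshold, the mean of a gene's probes, no batch term, each wash batch alone, slide as a random block, a replicate block, and each array left out.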

Additional observations from a re-analysis of the deposited data

Results flagged for a closer look

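In WT PCN, the Dgat2 signal of replicate 4 was 13.16 on the log2 scale, below the other 4 mice, of which the nearest was at 13.56. The gap was 0.854 of the range of the group, above Dixon's 95% critical value of 0.71 for 5 samples. Chance marks about 1 in 20 groups, and 1 of 64 groups examined was marked. The WT PCN minus WT CONT difference of Dgat2 was not called with this mouse in the fit.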

How the results depend on the processing

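None of the 9 genes was called in any comparison under the 12 alternatives or with any 1 of the 23 arrays left out. Of 540 values under the alternatives 28 turned sign, none by more than 0.179 from 0 on the log2 scale, and the cause was not tested. The 540 include values without a fold threshold and without the filter on dim probes. These settings leave the fitted differences unchanged, so no sign could turn there. For PCN in WT mice, Dgat1 (0.0011) became -0.0145 with the median signal centred on the 75th percentile, -0.0362 with the processed signal, -0.0165 after normexp, -0.0033 in the deposited table, -0.0052 with slide as a random block and -0.115 in wash batch 1, where Apoa1 became -0.0494 and Apoa4 0.179. For PCN in Pxr-/- mice, Dgat1 became -0.0111 and Dgat2 -0.0038 with the median signal so centred, -0.0404 and -0.0182 with the processed signal, Dgat1 -0.0666 in wash batch 1, and Dgat2 -0.0210 and Mogat2 0.0470 in wash batch 2. For the difference of the PCN effects, Dgat1 became -0.0042 with the processed signal, and Apob -0.0649 and Apoc2 -0.128 in wash batch 2. Between the control groups, Dgat1 became 0.0015 and 0.0341 with these centrings and 0.119 in wash batch 1, and Apob 0.0388 and Apoa4 0.0523 in wash batch 2. Between the PCN groups, Mogat2 became -0.0036 with the mean of all probes, and Apoc2 -0.0133, Dgat1 -0.0986 and Dgat2 -0.00094 in wash batch 2.

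With 1 array left out, 44 of 1035 values turned sign. Their ranges for PCN in WT mice were -0.0771 to 0.159 for Apoa1, -0.845 to 0.160 for Apoa4 and -0.0602 to 0.0467 for Dgat1, and for PCN in Pxr-/- mice -0.0159 to 0.0920 for Dgat1, -0.0178 to 0.104 for Dgat2 and -0.0715 to 0.0196 for Mogat2. For the difference of the PCN effects they were -0.0018 to 0.172 for Apob, -0.0566 to 0.228 for Apoc2 and -0.0261 to 0.0944 for Dgat1, between the control groups -0.0814 to 0.0300 for Dgat1, and between the PCN groups -0.165 to 0.0083 for Apob, -0.0362 to 0.0677 for Dgat1 and -0.0323 to 0.0976 for Dgat2.

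Of the other lipid-handling genes, 1 was called for PCN in Pxr-/- mice, against 2 with the processed signal (Apod and Scarb1), 5 without a fold threshold, and 0 in either wash batch alone. With 1 array left out the count ran from 0 (without Pxr-/- CONT replicate 4) to 2 (Apod and Ppara, without Pxr-/- PCN replicate 6). Without a fold threshold, 2 were called for PCN in WT mice and 1 between the PCN groups. For calls without that threshold, the share of all genes is not given here. Aadac was called between the PCN groups in wash batch 1 alone, a count of 1, and between the control groups without WT CONT replicate 4, where the counts ran from 0 to 1.

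The labels do not say whether replicate numbers pair the mice. Over 33 pairs of the same number r ran from -0.205 to 0.434, and 6 were over 0.1. Pairs of different numbers were not examined, so pairing was not settled by these values. With the replicate block, 0 members were called in each of the 5 comparisons and 1 other lipid-handling gene for PCN in Pxr-/- mice, and Dgat1 for PCN in WT mice became -0.0094. Precision is limited by the number of arrays and by the spread among mice, which was widest for Apoa4.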
